A study of Mus musculus with 24 samples.

Results

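The cytosolic ribosomal protein genes were all genes whose symbol in the platform's probe annotation begins with Rpl or Rps and a number, together with Rplp0, Rplp1 and Rplp2, without the Rps6k kinase genes. The rule found 61 genes among the 13840 symbols named on the array, 41 of the large and 20 of the small ribosomal subunit, each read from its brightest probe. Of the 61 symbols, 7 name relatives rather than core ribosomal proteins: the paralogs Rpl3l, Rpl7l1, Rpl22l1, Rpl36al, Rpl39l and Rps27l, and Rps19bp1, which encodes a protein that binds Rps19. Whole brain and liver of male mice were measured on one-colour chemiluminescent arrays, 12 for each tissue and 3 for each of 4 groups. These were Acads+/+ and Acads-/- mice, 12 weeks old, that received a high-fat (HF) or a low-fat (LF) diet for 2 days after chow since weaning, and all mice were housed singly. The Acads-/- mice were BALB/cByJ, which carry a spontaneous deletion in the gene of the mitochondrial short-chain acyl-CoA dehydrogenase, and the Acads+/+ mice were BALB/cByKZ, so genotype and substrain go together in every comparison. For the LF liver samples 1 label field names a high-fat diet, and their group was taken from the titles and treatments, which say low-fat.

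The ribosome joins a small subunit, which reads the mRNA, to a large subunit, which forms the peptide bond, and each subunit holds 1 copy of nearly all of its proteins. Ribosomal protein genes are among the most highly transcribed genes of any cell, and their mRNAs begin with a terminal oligopyrimidine (TOP) tract, a C at the cap followed by a run of C and T, through which mTORC1 controls their translation as a group. In neurons, ribosomes are made in the cell body and serve local protein synthesis in dendrites and axons, and in hepatocytes they carry the synthesis of plasma proteins.

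The start sequences of 8 members are shown because the TOP tract is the feature these mRNAs share and because the 8 span the brain results below, from Rpl36al and Rps28, with some of the largest differences, to Rpl5, with almost none. Each window holds 15 bases before and 15 bases from the first base annotated by RefSeq (GRCm38.p6), on the strand of the gene. Capitals mark the unbroken run of C and T, from its first C, in members whose first annotated base is a C followed by at least 4 bases that are C or T.
Rpl35a (chr16:33056467-33056496, plus strand): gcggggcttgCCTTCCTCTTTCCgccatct
Rplp2 (chr7:141447636-141447665, plus strand): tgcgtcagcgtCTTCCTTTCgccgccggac
Rps15a (chr7:118116133-118116162, minus strand): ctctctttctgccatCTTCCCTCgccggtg
Rps27 (chr3:90213634-90213663, minus strand): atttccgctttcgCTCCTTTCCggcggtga
Rps6 (chr4:86857353-86857382, minus strand): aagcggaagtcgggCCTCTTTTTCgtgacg
Rps28 (chr17:33824548-33824577, minus strand): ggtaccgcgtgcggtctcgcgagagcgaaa
Rpl36al (chr12:69184053-69184082, minus strand): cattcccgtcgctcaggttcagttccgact
Rpl5 (chr5:107900513-107900542, plus strand): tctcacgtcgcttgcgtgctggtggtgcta
With this rule, which reads the strand of the gene alone, 11 of the 51 members with an entry (21.6%) began with a TOP tract at an annotated first base, against 467 of 17492 protein-coding genes (2.67%). Within 5 bases of that first base the tract was found in 23 members (45.1%), against 21.5% of protein-coding genes. A match in these letters is a description of the annotated start. For a member with several annotated starts, such as Rpl35a, any of them could match.

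The array signal of these genes was high in both tissues. Of the 61 members, 59 passed the filter on mean signal in brain, all but Rpl37 and Rpl3l, and 59 passed in liver, all but Rpl37 and Rpl39l. In brain 55 members and in liver 56 lay among the 10% of probes with the highest signal. The median residual SD of a member was 0.288 in brain and 0.142 in liver on the log2 scale, against 0.271 and 0.524 over all tested probes. Members have many processed pseudogenes and close copies, and a probe cannot tell such transcripts apart. In total RNA of a whole tissue, fewer cells of a type and less RNA per cell cannot be told apart either.

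Before the results, 1 group of brain arrays has to be set apart. On the first principal component, which held 49.2% of the variance in brain, the 3 Acads+/+ HF arrays lay at -46.3, -108 and -78.7, and the other 9 arrays at 18.6 to 33.8. Across 9027 named probes, the deviation of log2 signal from the mean of all 12 arrays had a positive Spearman rho with genomic span on each Acads+/+ HF array (0.278, 0.415 and 0.427, a description) and a negative one on each of the other 9 (-0.329 to -0.173). That mean includes the 3 Acads+/+ HF arrays, so the sign on the other 9 is not independent of theirs. The median raw signal was 976 to 2088 in brain and 340 to 460 in liver. Summed neuron marker signal was at least 1095000 on every brain array and at most 4987 on every liver array, in tissues that were normalized separately. The 1 Acads probe was lower in Acads-/- brain on HF diet, with no overlap (log2 signal 8.90 to 10.02 against 11.73 to 11.92; log2 fold change -2.39, adjusted p = 0.00248 from limma). On LF diet its difference in brain was -1.87 (adjusted p = 1), and in liver it was -1.68 on HF and -1.28 on LF diet (adjusted p = 0.743 and 1).

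The difference between HF and LF diet in the brain of Acads+/+ mice was large for most members. It rests on the 3 Acads+/+ HF arrays set apart above, and diet cannot be told apart there from other differences of those arrays. A gene was called changed where its p, adjusted after Benjamini and Hochberg, was below 0.05 and its fold change reached 1.6. By that rule 46 of the 59 tested members were lower on HF diet, against 17.3% of all 16506 tested probes, and 1 was higher, against 15.5%. The median log2 fold change of the members was -1.32, and that of all tested probes was 0.12. With scaling of each array to the same median instead of quantiles, the members' median was -1.96. Then 53 were lower, against 17% of all tested probes, and 1 was higher, against 15.4%. For 49 members (83.1%) all 3 Acads+/+ HF arrays lay below all 3 Acads+/+ LF arrays, against 23.8% of all tested probes. For 49 members they also lay below all 9 other brain arrays, against 16.4%, and the other 10 were Rpl3, Rpl4, Rpl5, Rpl6, Rpl7, Rpl7l1, Rpl27a, Rpl39l, Rplp0 and Rps3a1.

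**Figure D1:**
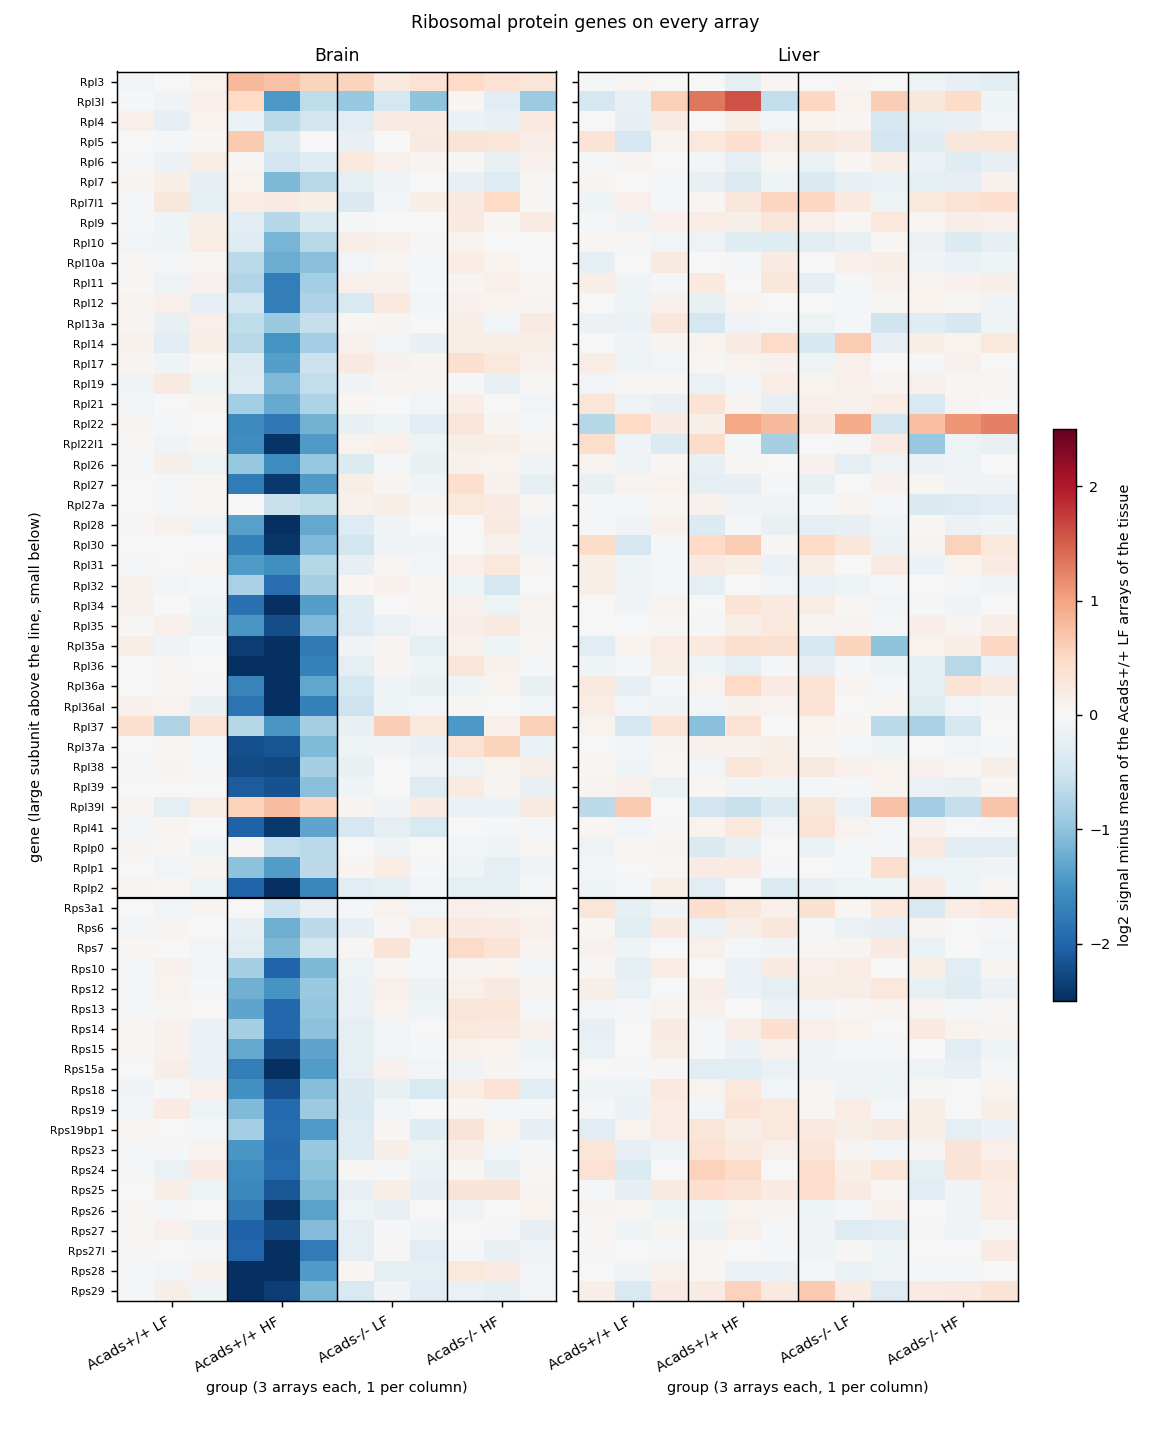
Log2 signal of each of the 61 ribosomal protein genes (rows, large subunit above the line and small subunit below) on each of the 12 brain and 12 liver arrays (columns, 3 per group), minus the mean of the Acads+/+ LF arrays of the tissue; colours end at the limits of the bar. The 3 Acads+/+ HF brain arrays are blue for most members, Rpl3, Rpl39l and, more faintly, Rpl7l1 are red on all 3 (Rpl3's difference flips to -0.15 when arrays are scaled to a common median), and no liver group shows a comparable block.

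Among large-subunit genes, 28 of 39 were lower on HF diet in Acads+/+ brain, with a median log2 fold change of -1.11, and 1 was higher. The largest decrease was that of Rpl36, a core protein of the large subunit (GRCm38, chr17:56610094-56614246). In Acads+/+ brain its log2 signal read 15.32, 15.08 and 16.32 with HF diet and 18.00, 18.04 and 18.00 with LF diet. In Acads-/- brain it was 18.32, 18.13 and 17.98 on HF diet and 17.80, 18.08 and 17.91 on LF diet. The 3 Acads+/+ HF arrays were thus low, apart from all 9 others, which lay close together. The log2 fold change for diet was -2.44 (standard error 0.26, adjusted p = 0.000187 from limma).

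Rpl35a, which is mutated in some families with Diamond-Blackfan anaemia in people, had log2 signals of 15.13, 14.65 and 15.73 with HF diet in Acads+/+ brain, compared with 17.65, 17.41 and 17.46 with LF diet. The 2 groups were far apart, with a log2 fold change of -2.33 (adjusted p = 0.000158). Rpl36al, the paralog of Rpl36a, was at 15.97, 14.93 and 16.12 against 17.91, 17.90 and 17.63, again without overlap (-2.14, adjusted p = 0.000338). Rplp2, described with the P stalk, came next, and then Rpl34 at 16.48, 15.75 and 16.96 against 18.44, 18.34 and 18.24 (-1.94, adjusted p = 0.000384).

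Further members of the large subunit were lower. The paralog Rpl22l1 (-1.81) and Rpl22 itself (-1.52) were both lower, and Rpl41, the smallest ribosomal protein, had -1.92 (adjusted p = 0.000242). Rpl32 (-1.18, adjusted p = 0.00477) and Rpl13a (-0.71, adjusted p = 0.0038), which serve as reference genes in quantitative PCR, were lower too, and the Rpl13a call was lost without array 18022 (-0.60), 18021 (-0.65) or 17962 (-0.68). Rpl37, below the filter, had -1.0 (adjusted p = 0.216) and Rpl3l, the muscle paralog of Rpl3, had -0.52 (adjusted p = 0.46) in a fit over all probes.

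The P stalk of the large subunit, which recruits the GTPase elongation factors, is built of Rplp0 with Rplp1 and Rplp2. Rplp2 was at 17.12, 16.42 and 17.49 with HF diet in Acads+/+ brain and at 19.20, 19.18 and 19 with LF diet, without overlap (log2 fold change -2.12, adjusted p = 0.000184). Rplp1 was at 19.16, 18.80 and 19.54 against 20.20, 20.13 and 20.26, lower on every HF array (-1.03, adjusted p = 0.00137). Rplp0, the base of the stalk, was at 17.29, 16.64 and 16.57 against 17.33, 17.27 and 17.15. Its groups overlapped, and its log2 fold change of -0.42 did not pass (adjusted p = 0.0784), whereas a dimmer second Rplp0 probe gave -0.83 (adjusted p = 0.00446) and scaling to a common median gave -0.76 for the first.

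Rpl5 and Rpl11 bind 5S rRNA together and hold the p53 regulator Mdm2 when ribosome assembly fails. Rpl11 was at 18.45, 17.47 and 18.34 with HF diet in Acads+/+ brain, below the LF values of 19.22, 19.07 and 19.30 on all 3 arrays (log2 fold change -1.11, adjusted p = 0.00302). Rpl5 was at 18.84, 17.86 and 18.18 against 18.20, 18.17 and 18.22. For Rpl5 the HF arrays lay on both sides of the tight LF group, and the log2 fold change of 0.10 (95% confidence interval -0.38 to 0.58, adjusted p = 0.731) turned to -0.61 with arrays scaled to a common median and to -0.18 without array 18017.

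Rpl3, a large protein that reaches the peptidyl transferase centre, went against the majority. In Acads+/+ brain it read 19.77, 19.69 and 19.51 with HF diet, each value above the LF values of 18.89, 18.96 and 19.04. The log2 fold change was 0.69 (standard error 0.14, adjusted p = 0.00291), but the direction of Rpl3 flipped to -0.15 when arrays were scaled to a common median, and without array 18017 (0.64) or array 17962 (0.66) its fold change fell under the limit of 1.6. Rpl39l, the paralog of Rpl39 best known from testis, was at 14.58, 14.78 and 14.54 against 14.07, 13.77 and 14.18. All 3 HF arrays were above the LF arrays, and its log2 fold change of 0.63 (adjusted p = 0.0113) missed the fold limit that it passed with arrays scaled to a common median (0.69). Rpl7l1, a nucleolar relative of Rpl7, was at 15.30, 15.33 and 15.28 against 15.07, 15.40 and 14.90, with overlap (0.18, adjusted p = 0.445).

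Among small-subunit genes, 18 of 20 were lower on HF diet in Acads+/+ brain, with a median log2 fold change of -1.48. Rps28, which lies where the mRNA leaves the small subunit, had the largest decrease. In Acads+/+ brain it was at 16.72, 16.86 and 18.04 with HF diet, far from 19.42, 19.41 and 19.58 with LF diet. In Acads-/- brain Rps28 was at 19.72, 19.66 and 19.39 on HF diet and at 19.52, 19.23 and 19.23 on LF diet. Again the Acads+/+ HF arrays stood alone below the other 9, and the log2 fold change for diet was -2.26 (standard error 0.29, adjusted p = 0.000353 from limma).

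Rps27l, a p53-induced paralog of Rps27, was at 14.39, 13.56 and 14.64 with HF diet in Acads+/+ brain, against 16.40, 16.40 and 16.34 with LF diet, without overlap (log2 fold change -2.19, adjusted p = 0.00018). Rps27 itself had -1.78. Rps29, a zinc-binding protein of the head of the small subunit, was at 17.15, 17.42 and 18.64 against 19.75, 19.91 and 19.67 (-2.04, adjusted p = 0.000746). Every HF array of Rps29 was lower, and the third much less so than the other 2. Rps15a was at 16.76, 16.00 and 17.10 against 18.51, 18.64 and 18.33 (-1.87), and Rps26, a neighbour of Rps28 at the mRNA exit, was at 17.53, 16.86 and 17.96 against 19.33, 19.27 and 19.30 (-1.85), both without overlap. Rps18, another reference gene, had -1.59 (adjusted p = 0.0011), and Rps19bp1 had -1.40 (adjusted p = 0.00152).

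Rps6, the small-subunit protein that S6 kinases phosphorylate after mTORC1 activation, was at 17.84, 16.83 and 17.41 with HF diet in Acads+/+ brain and at 17.99, 18.12 and 18.06 with LF diet. The HF arrays were all lower, 1 of them only slightly, and the log2 fold change was -0.70 (adjusted p = 0.0246). The Rps6 call was lost without any of arrays 17962 (-0.73), 18018 (-0.72), 18020 (-0.66), 18021 (-0.70) or 18022 (-0.43). The 2 small-subunit genes that did not pass were Rps7 (-0.61, adjusted p = 0.0364, under the fold limit) and Rps3a1 (19.07, 18.55 and 18.89 against 19.06, 19 and 19.15, with overlap; -0.23, adjusted p = 0.217), and both passed with arrays scaled to a common median.

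The median of the large-subunit genes lay 0.37 above that of the small-subunit genes in this comparison, a difference of medians with no test, and 0.15 above it with arrays scaled to a common median. The SD of that difference over single brain arrays within groups was 0.106. The study's methods name a t-statistic with Benjamini-Hochberg correction for the arrays and do not give its variance form. With an equal-variance t-test in place of limma, 44 members passed unadjusted and 15 after Benjamini-Hochberg adjustment. The shares of all tested probes passing that t-test were not counted.

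**Figure D2:**
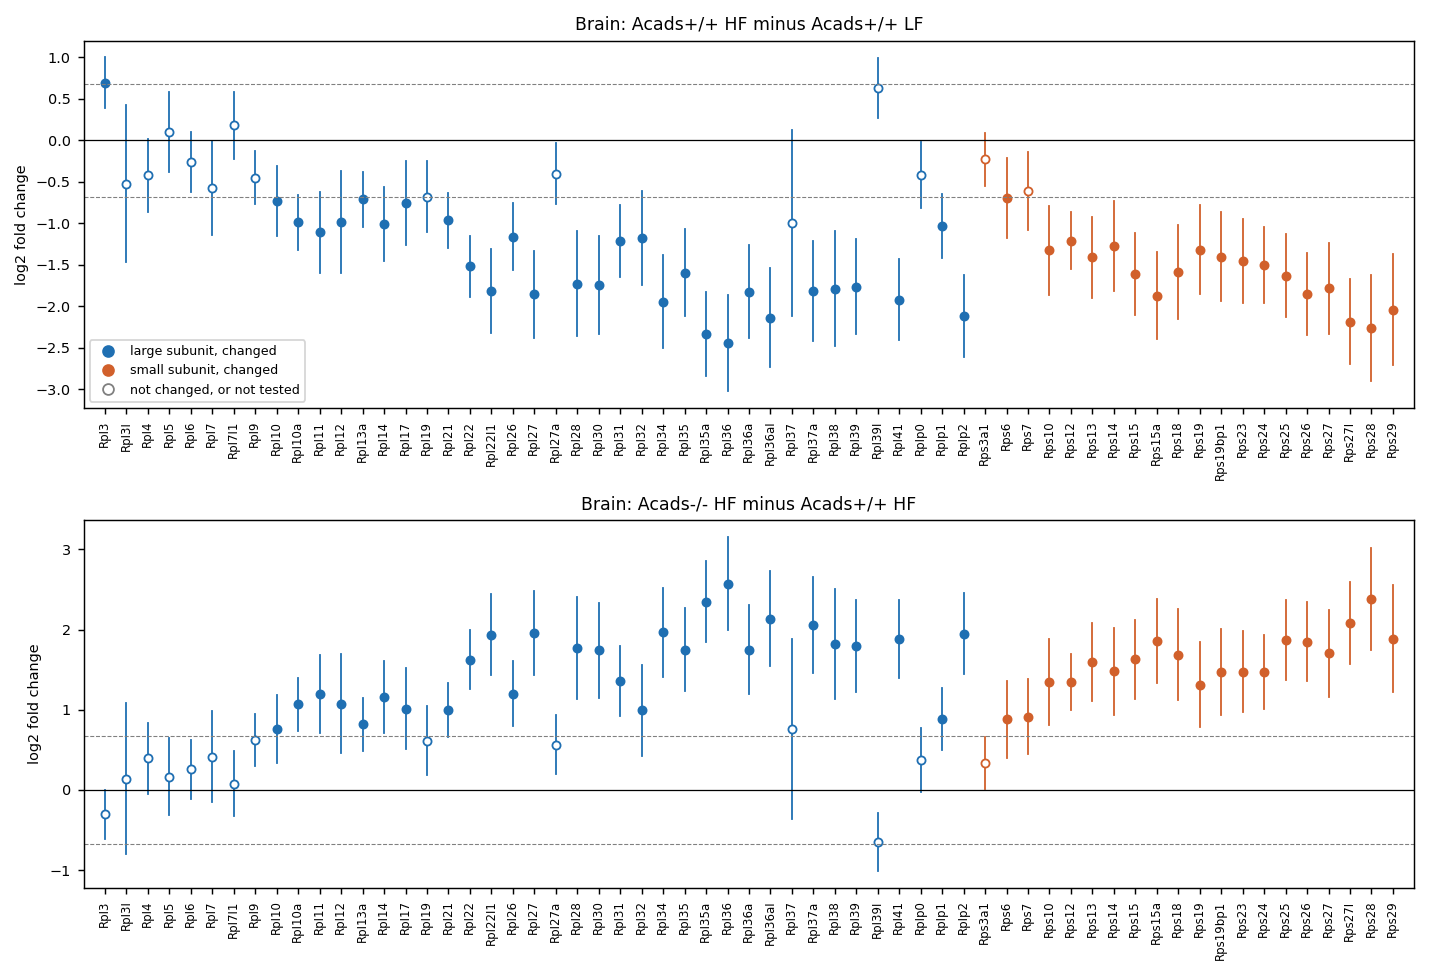
Log2 fold change of each of the 61 genes in brain for HF minus LF diet in Acads+/+ mice (top) and for Acads-/- minus Acads+/+ mice on HF diet (bottom), with 95% confidence intervals from limma; filled points were called changed and dashed lines mark a fold change of 1.6. Both panels use the same 3 Acads+/+ HF arrays, and in the top panel the points fall from Rpl3 at 0.69 (-0.15 with arrays scaled to a common median) to Rpl36 at -2.44.

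The size of the difference followed the numbers in the gene names, which were given broadly in order of decreasing protein size. Over the core genes without Rplp0, Rplp1 and Rplp2, the Spearman correlation of the log2 fold change for diet in Acads+/+ brain with the number was -0.87 for 32 large-subunit genes and -0.86 for 18 small-subunit genes, a description over genes that share the same arrays. Large-subunit genes numbered up to 9 had a median of -0.34 (6 genes), those numbered 10 to 29 had -0.99 (14 genes) and those numbered 30 and up had -1.80 (12 genes). In the small subunit the medians were -0.61 (numbers up to 9, 3 genes), -1.37 (10 to 19, 8 genes) and -1.78 (20 and up, 7 genes). Among these genes, those with higher numbers thus had the larger decreases. The P-stalk genes left out carry a numbering of their own and ranged from -0.42 (Rplp0) to -2.12 (Rplp2), so Rplp2 joins a low number with one of the largest decreases.

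The order by number was present on each Acads+/+ HF brain array. Set against the LF mean of Acads+/+ brain, large-subunit genes had medians of 0.06, -0.68 and -1.94 from the lowest to the highest numbers on array 18017, of -0.58, -1.43 and -2.35 on array 18022, and of -0.35, -0.81 and -1.10 on array 18018. In the small subunit they were -0.21, -1.25 and -1.76 on array 18017, -1.12, -1.99 and -2.25 on array 18022, and -0.45, -1.04 and -1.13 on array 18018. The 3 arrays differed in depth and slope, but all 3 went down from the first class to the last. The arrays are named by the number their columns carry in the deposited table.

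**Figure D3:**
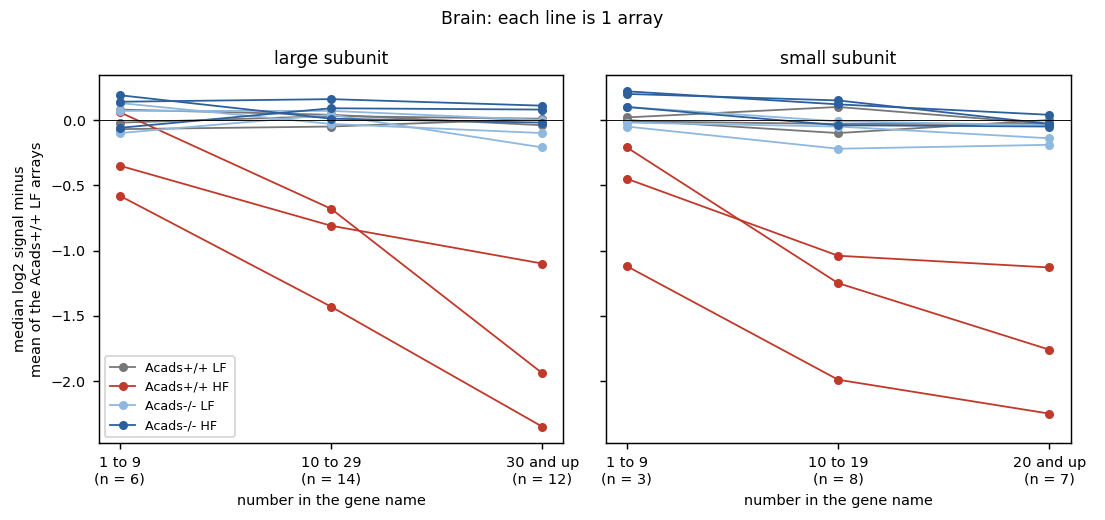
Median log2 signal of the core large-subunit genes without the P-stalk genes (left) and small-subunit genes (right), minus the LF mean of Acads+/+ brain, in 3 classes of the number in the gene name, with 1 line per brain array. The 3 Acads+/+ HF lines descend to between -2.35 and -1.10 in the last class of the large subunit, while the 9 other lines stay near 0.

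Genomic span and TOP starts were set beside the same differences. The members are short genes, with a median span of 3352 bases against 18795.5 for all named probes, and across the 59 tested members the log2 fold change for diet in Acads+/+ brain had a Spearman rho of 0.38 with span, against 0.42 across 9027 named probes. After removal of the span trend, 37 members were lower and 2 higher, and the median was -1.0. The share of all tested probes called after that removal was not counted. Tested members with a TOP tract at an annotated first base had a median of -1.73 (11 genes), and those without had -1.27 (38 genes). Rps28, Rpl36al and Rpl5, all shown above without such a tract, had -2.26, -2.14 and 0.10.

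Spread among the Acads+/+ HF brain arrays was wide. The median SD of a member over the 3 arrays was 0.535 there, against 0.0957 in Acads+/+ LF, 0.12 in Acads-/- HF and 0.133 in Acads-/- LF brain, while the median over all tested probes in the Acads+/+ HF group was 0.285. The fit shared 1 estimate of spread per probe over the 4 groups, so its standard errors do not follow these differences in spread between groups. Array 18022 was the lowest of all 12 arrays for 51 of the 59 members. The members' median relative to the Acads+/+ LF mean was -1.21 on array 18017, -1.93 on array 18022 and -0.96 on array 18018, and -0.18 to 0.12 on the other 9. Without array 18022, 42 members were changed in the diet comparison, and without array 18017, 49. Liver arrays with the numbers 18018 and 18022 had member medians of 0.04 and 0.03 relative to their LF group.

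Several cell type markers moved with the same arrays, in a comparison where 15.5% of all tested probes were higher and 17.3% lower. Of the astrocyte markers, Slc1a2 (0.53), Aldh1l1 (0.46) and Slc1a3 (-0.66) were tested for HF diet in Acads+/+ brain and not called. In Acads+/+ brain on HF diet, 3 of 3 tested microglia and macrophage markers were lower (Aif1 -1.93, C1qa -1.11, C1qb -0.89), and their list's summed signal was 53210 to 89860 against 135400 to 146500 on LF diet. Of 4 oligodendrocyte markers 2 were higher (Mbp 1.43, Cnp 0.98), with summed signals of 428200 to 833500 against 200800 to 263800. Among 6 neuron markers 2 were higher (Nefl 1.14, Syn1 0.86) and 2 lower (Snap25 -2.16, Syt1 -0.90), with summed signals of 1468000 to 1540000 against 1095000 to 1213000. Of the 2 tested blood markers the haemoglobin gene Hba-a1 was lower (-1.76) and Alas2 higher (1.02), with sums of 71590 to 136100 against 340600 to 354000. The choroid plexus list had 1 of 3 lower (Folr1 -0.74), with sums of 1130000 to 1879000 against 1996000 to 2178000. The part of these shifts, and of the array differences above, in the ribosomal protein results was not tested.

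For several members more than 1 probe was present, and in Acads+/+ brain these did not always move together. The 3 probes of Rpl31 had log2 fold changes of -1.21, -1.42 and -1.39 for diet, and both probes of Rpl26 (-1.16 and -1.28), of Rpl14 (-1.01 and -1.74) and of Rps24 (-1.51 and -0.97) went down. For Rps15a the bright probe had -1.87 and a dimmer one 1.02 (adjusted p = 0.0635). For genotype on HF diet the dimmer Rps15a probe, which is not among the member values, had -1.65 (adjusted p = 0.00807), opposite to the 1.85 of the bright probe. For Rpl22 the bright probe had -1.52 and a dimmer one 0.36 (adjusted p = 0.133). The second probes of Rpl21 (0.04) and Rpl34 (-0.41) were below the filter.

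Other genes of translation and ribosome assembly were examined as lists in Acads+/+ brain, where 15.5% of all tested probes were higher and 17.3% lower on HF diet. Fau, which encodes the small-subunit protein Rps30 fused to a ubiquitin-like protein and which the symbol rule does not catch, had -2.01 for diet in Acads+/+ brain (adjusted p = 0.000237). Of 9 genes of elongation factors and of enzymes that modify them, 3 were higher and 2 lower (median 0.56): Eef2, which moves the ribosome along the mRNA, had 1.49 (adjusted p = 0.000521), the neuronal Eef1a2 had 0.79, the exchange factor subunit Eef1b2 had -0.81, and Eef1akmt1, a methyltransferase of the elongation factor and not itself a factor, had -1.15. Of 28 genes of initiation factors and their relatives 8 were higher and 3 lower (median 0.23), with Eif4g2 at 1.84, Eif3a at 1.42 and Eif2s2 at -1.78. Both lists held genes that were higher and genes that were lower.

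Among 47 genes of ribosome assembly and the nucleolus, 7 were higher and 6 lower (median 0.12), shares close to those of all tested probes. The H/ACA proteins Nop10 (-3.01, adjusted p = 0.000175) and Nhp2 (-1.63), which guide pseudouridylation of rRNA, were lower, and Nop14, a factor of small-subunit assembly, was higher (1.55). Of 15 genes of RNA polymerase I and III and their factors 1 was higher and 3 were lower, among them Polr1d (-1.82) and Taf1d (-1.86). Of 14 other genes whose mRNAs carry TOP starts 3 were higher and 1 lower (median 0.41), but 8 of the 14 are also in the elongation or initiation lists, and all 4 calls are among those 8. Of 8 genes of mTORC1 signalling and of kinases named after S6, Rps6ka3 (1.18) and Pdcd4 (0.73) were higher. The translational repressor gene Eif4ebp1 was lower (-1.08).

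**Figure D4:**
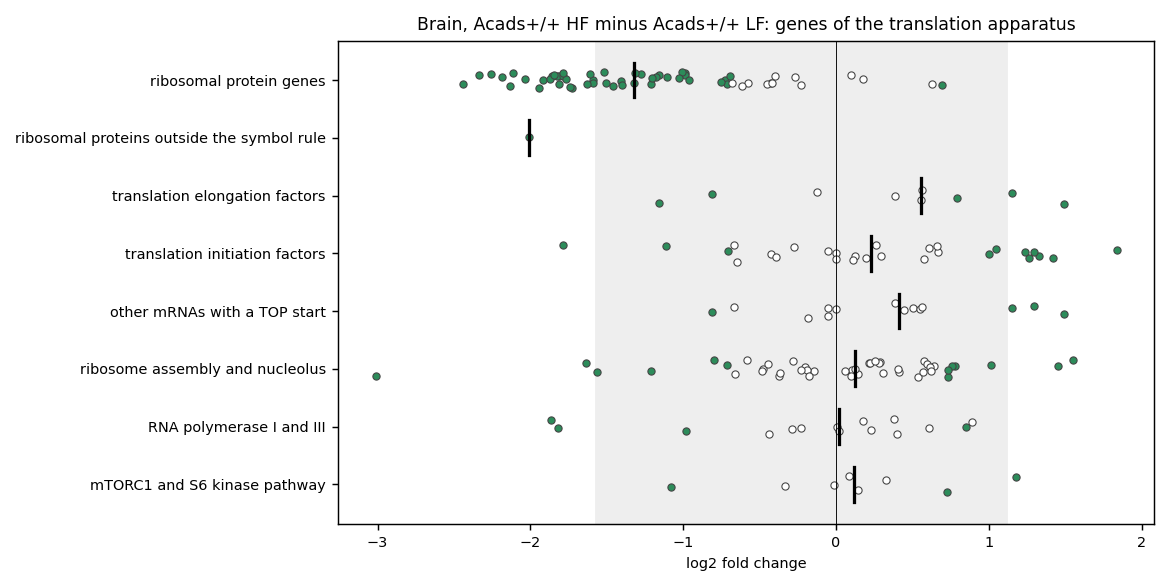
Log2 fold change for HF minus LF diet in Acads+/+ brain of each tested gene in 8 groups of the translation apparatus; filled points were called changed, short lines are medians and the grey band spans the 5th to 95th percentile of all tested probes, -1.57 to 1.12. The ribosomal protein genes have a median of -1.32, and the medians of the 6 lists of more than 1 other gene, some of which share genes, lie between 0.02 and 0.56.

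The comparison of Acads-/- with Acads+/+ mice on HF diet set the genotypes, and with them the substrains, side by side in brain. It shares the Acads+/+ HF arrays with the diet comparison, so the 2 are not independent. Of 59 tested members 47 were higher in Acads-/- brain, against 17.5% of all tested probes, and 0 were lower, against 17.4%; 0 were lower at an unadjusted p under 0.05 and the fold limit. The members' median log2 fold change was 1.47, with all tested probes at -0.13, and the members' median was 2.00 with arrays scaled to a common median. With that scaling 55 were higher, against 15.9% of all tested probes, and 1, Rpl39l, was lower, against 20.2%. Of large-subunit genes 28 of 39 were higher (median 1.16), and of small-subunit genes 19 of 20 (median 1.54), a difference of medians of -0.37 that was -0.22 with that scaling.

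Rpl36 had the largest value in this genotype comparison, 2.57 (standard error 0.26, adjusted p = 0.000153 from limma), with Acads-/- HF arrays at 18.32, 18.13 and 17.98 and Acads+/+ HF arrays at 15.32, 15.08 and 16.32. Acads-/- HF brain read 17.62, 17.40 and 17.53 for Rpl35a (2.35, adjusted p = 0.000127), 17.85, 17.83 and 17.75 for Rpl36al (2.13) and 18.45, 18.20 and 18.43 for Rpl34 (1.97). All 3 genes lay above their Acads+/+ HF values given before. Rpl37a, a zinc-binding protein, was at 19.88, 20.08 and 19.36 in Acads-/- and at 17.34, 17.38 and 18.43 in Acads+/+ brain, without overlap (2.06, adjusted p = 0.000364).

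In the small subunit Rps28 had 2.39 (adjusted p = 0.000247). Acads-/- HF brain read 16.33, 16.19 and 16.30 for Rps27l (2.08), 19.60, 19.56 and 19.71 for Rps29 (1.89) and 18.41, 18.56 and 18.47 for Rps15a (1.85), all above the Acads+/+ HF values. Rps25 was at 19.03, 19.04 and 18.78 in Acads-/- and at 17.09, 16.56 and 17.58 in Acads+/+ brain, again without overlap (1.87, adjusted p = 0.000251).

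Members with small values were again those with low numbers. Rpl7l1 was at 15.35, 15.63 and 15.15 in Acads-/- HF brain (0.08), Rpl5 at 18.51, 18.51 and 18.37 (0.17), and Rpl6 at 19.06, 18.85 and 19.14 against 19.05, 18.54 and 18.69 (0.26). Each overlapped its Acads+/+ HF values and none passed, and Rpl5 and Rpl6 passed with arrays scaled to a common median. Rps7 had 0.92 (adjusted p = 0.00566), and Rps6 had 0.88 (adjusted p = 0.00816) and 0.61 without array 18022, under the fold limit. The Spearman correlation with the number in the name was 0.85 for the large and 0.80 for the small subunit, a description. Rpl39l was lower with -0.65 (adjusted p = 0.00868), under the fold limit. With the methods' t-test 46 members passed unadjusted and 0 after adjustment, and the shares of all tested probes were not counted.

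On LF diet no member passed the test between genotypes in brain. Of 59 members 0 were changed, against 0.0182% of all tested probes, and 0 passed at an unadjusted p under 0.05 with the fold limit, against 1.97%. The median log2 fold change was -0.07, in a range of -0.34 (Rpl41) to 0.38 (Rpl3). For 42 of the 59 members the 95% confidence interval lay within a fold change of 1.6 in both directions, so for these 42 a larger difference lies outside the interval. Rpl41, the smallest of the ribosomal proteins, was at 19.64, 19.80 and 19.68 in Acads-/- and at 19.98, 20.12 and 20.06 in Acads+/+ brain, without overlap. Its adjusted p was 1. The standard errors and intervals here and for diet in Acads-/- brain rest on a spread shared with the wider Acads+/+ HF group. Rpl3 was at 19.53, 19.18 and 19.33 in Acads-/- and at 18.89, 18.96 and 19.04 in Acads+/+ brain, also without overlap (adjusted p = 1). Rps18 (17.68, 17.86 and 17.67 against 17.95, 18.02 and 18.17; -0.31) was lower on every array and Rpl6 (19.29, 19.15 and 19.09 against 18.98, 18.88 and 19.22; 0.15) overlapped.

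HF diet likewise changed 0 of 59 members in Acads-/- brain, against 0% of all tested probes, and 0 passed unadjusted, against 4.86%. The median log2 fold change was 0.12, from -0.24 (Rpl32) to 0.41 (Rps18), and 38 members had intervals within a fold change of 1.6. Rps18 was at 18.24, 18.42 and 17.79 on HF and at 17.68, 17.86 and 17.67 on LF diet, with overlap, and Rpl37a (0.38) was at 19.88, 20.08 and 19.36 against 19.42, 19.44 and 19.34, also with overlap. Rpl32 was at 19.95, 19.60 and 20.04 against 20.09, 20.16 and 20.07, with adjusted p = 0.786 from limma. Rplp1 (-0.22) was at 20.09, 19.96 and 20.10 against 20.27, 20.38 and 20.16 (adjusted p = 0.696). Both were lower on every HF array. Other members were apart in the other direction, such as Rpl35 (0.34) and Rpl41 (0.31), and 9 of the 59 members had a value below 0. The share of all tested probes apart in this way was not counted for this comparison or for genotype on LF diet. For Rpl36 the difference was 0.21 (95% confidence interval -0.37 to 0.79) and for Rps28 0.27 (-0.37 to 0.90), where both were far below 0 in Acads+/+ mice.

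The difference between genotypes in the effect of diet was tested as an interaction. In brain 41 of 59 members were higher, against 12.1% of all tested probes, and 2 were lower, against 10.6%, with a median of 1.52 on the log2 scale. By subunit, 24 large-subunit genes were higher and 2 lower (median 1.14), and 17 of 20 small-subunit genes were higher (median 1.67). Rpl36 had 2.65 (standard error 0.37, adjusted p = 0.00222) and Rps28 2.52 (standard error 0.41, adjusted p = 0.00308), the largest of their subunits. The other 4 largest were Rpl35a (2.43), Rpl36al (2.36), Rpl41 (2.23) and Rpl37a (2.19) in the large subunit and Rps27l (2.23), Rps29 (2.13), Rps18 (2.00) and Rps26 (1.96) in the small subunit. The array values of these genes were low in Acads+/+ HF brain alone, as for Rpl41 with 18.03, 17.64 and 18.73 there and 19.64 to 20.12 on the other 9 arrays. The smallest values were those of Rpl6 (0.11), Rpl5 (0.15) and Rpl7l1 (0.17), which did not pass. The 2 members with a negative value were Rpl39l, -0.71 (adjusted p = 0.0479), and Rpl3, -0.69 (adjusted p = 0.0279), and Rpl3 flipped to 0.25 with arrays scaled to a common median. With single arrays left out Rpl39l lost its call for 9 of 12 arrays (all but 18017, 18021 and 17973; -0.78 to -0.59) and Rpl3 for 8 (all but 18018, 18021, 17873 and 17981; -0.69 to -0.60). Rplp1 lost its call without 9 of the arrays and Rpl13a without 6, with 0.63 and 0.67 without array 18022.

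With the Acads+/+ HF arrays out of the comparison, Acads-/- mice on HF diet were set against Acads+/+ mice on LF diet. Of 59 members 0 were changed, against 0.0303% of all tested probes, and 0 passed unadjusted, against 3.15%. The median log2 fold change was 0.04, from -0.18 to 0.39 (Rpl3). The contrast changes genotype and diet at once. Its differences use none of the 3 arrays that set the members apart in the comparisons above. Those arrays still entered the normalization, the filter and the spread shared by the 4 groups, on which its tests rest.

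**Figure D5:**
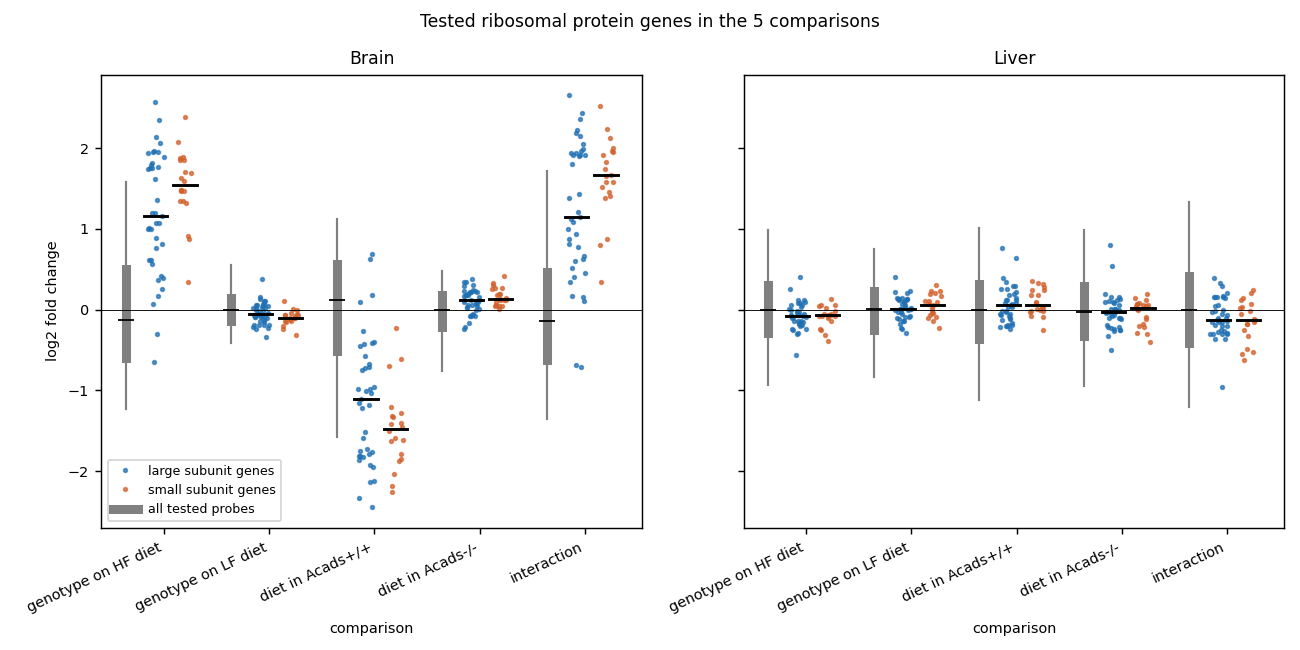
Log2 fold changes of the tested ribosomal protein genes (points, coloured by subunit, with black lines at the medians) in the 5 comparisons of each tissue, beside all tested probes (grey box, 25th to 75th percentile; grey line, 5th to 95th percentile). In brain the 3 comparisons that use the Acads+/+ HF arrays have member medians at -1.32, 1.47 and 1.52, and in the other brain comparisons and in liver all member medians lie between -0.12 and 0.12.

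In liver 0 of 59 members were changed in any of the 5 comparisons, and 0 passed at an unadjusted p under 0.05 with the fold limit. For genotype on HF diet the shares of all tested probes were 0% changed and 5.67% unadjusted, and the members' median was -0.07. For genotype on LF diet they were 0% and 3.28%, with a median of 0.02. Diet in Acads+/+ liver had 0% and 8.71%, with a median of 0.06, and diet in Acads-/- liver had 0.109% and 7.4%, with a median of -0.01. The interaction had 0% and 5.13%, with a median of -0.12. The 95% confidence interval lay within a fold change of 1.6 for 47, 48, 45, 45 and 17 of the 59 members in these comparisons, in the same order, so in all but the interaction a change of 1.6-fold lies outside the interval for most members.

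Rpl36 in liver was at 17.26, 17.15 and 17.35 in Acads+/+ HF mice and at 17.26, 17.33 and 17.54 in Acads+/+ LF mice, and these groups overlapped (log2 fold change -0.12, 95% confidence interval -0.55 to 0.31). Rps28 in liver was at 18.19, 17.99 and 17.99 against 18.13, 18.05 and 18.26, also with overlap (-0.09, interval -0.45 to 0.26). Rplp2, the stalk protein, was at 17.15, 17.44 and 17.09 against 17.33, 17.40 and 17.58 (-0.21, interval -0.61 to 0.19). The brain decrease of these 3 genes was thus not seen in the liver of the same groups, in tissues whose difference was not itself tested.

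Rpl22, an RNA-binding large-subunit protein known for its part in T cell development in mice, had the largest rise for diet in Acads-/- liver. It was at 17.47, 17.83 and 17.97 on HF diet and at 16.95, 17.65 and 16.27 on LF diet in Acads-/- liver, and at 16.86, 17.69 and 17.53 against 16.01, 17.22 and 16.93 in Acads+/+ liver. The groups overlapped in both genotypes, with log2 fold changes of 0.81 (adjusted p = 0.617) and 0.64 (adjusted p = 0.621). Rpl3l, the muscle paralog, was at 10.20, 10.47 and 8.28 on HF and at 8.47, 8.70 and 9.47 on LF diet in Acads+/+ liver, with overlap (0.77, adjusted p = 0.632). In Acads-/- liver Rpl3l was at 9.16, 9.35 and 8.77 against 9.39, 8.97 and 9.49 (-0.19, adjusted p = 0.96).

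A few members of Acads+/+ and Acads-/- liver were apart on all arrays without passing the test. For diet in Acads+/+ liver, Rps15a was at 16.75, 16.74 and 16.86 on HF and at 17.04, 16.98 and 17.06 on LF diet (-0.25), and Rpl10, which joins the large subunit late in its assembly, was at 18.84, 18.66 and 18.67 against 19.01, 18.99 and 18.89 (-0.24). For diet in Acads-/- liver, Rps12 was at 19.73, 19.61 and 19.77 against 20.07, 20.07 and 20.18 (-0.41), and Rpl22l1 at 15.42, 16.24 and 16.18 against 16.35, 16.40 and 16.57 (-0.49). These 4 genes were lower on every HF array of the comparison, and none passed. Members outside the rule for naming were apart too, in both directions. In Acads+/+ liver Rpl9 and Rpl37a were higher on every HF array and Rpl7 was lower. The share of all tested liver probes apart in this way was not counted. Rpl35a, with 16.10, 16.17 and 16.54 against 15.59, 16.58 and 15.01 there, overlapped (0.54).

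Between genotypes on HF diet in liver, Rps25 was at 17.29, 17.47 and 17.74 in Acads-/- and at 17.99, 17.90 and 17.76 in Acads+/+ mice (-0.38), lower on every array, and Rplp2 at 17.65, 17.33 and 17.46 against 17.15, 17.44 and 17.09 (0.25), with overlap. Rpl22 (0.40) and Rpl3l (-0.56) had the other extremes of that comparison. On LF diet Rpl7 was at 17.70, 17.88 and 17.90 in Acads-/- and at 18.12, 18.05 and 18.02 in Acads+/+ liver (-0.24), lower on every array, and Rps24 at 17.09, 16.81 and 16.95 against 17.00, 16.29 and 16.64 (0.31), with overlap. Rpl35a (-0.29) and Rpl3l (0.40) overlapped too. The interaction ranged from -0.96 (Rpl3l) and -0.62 (Rps25) to 0.33 (Rpl7) and 0.40 (Rplp2), and its lowest adjusted p was 0.891.

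The order by number was also examined in the other comparisons, over the same genes and as a description. In brain without the Acads+/+ HF arrays, where the differences themselves were small, the Spearman correlation was -0.64 for the large and -0.77 for the small subunit for genotype on LF diet, and 0.48 and -0.16 for diet in Acads-/- mice. In liver it ranged from -0.11 to 0.35 over the comparisons and subunits.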

How the data were processed

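Total RNA of whole brain and liver was labelled with digoxigenin and hybridised to Applied Biosystems Mouse Genome Survey arrays. The deposited intensity is the assay signal of each probe as the authors extracted it from the images, with no normalization between arrays. The deposited log2 values of the authors equal the log2 of quantile-normalized intensities. Here intensities were quantile-normalized over the 12 arrays of a tissue with a floor at the 5th percentile (234.7 in brain, 141.8 in liver) before log2. Probes whose mean signal exceeded the median (16506 per tissue) entered a limma 3.58.1 fit (R 4.3.3) with 4 groups, and two-sided p-values were adjusted over them (Benjamini-Hochberg). The study's detection filter on signal/noise was not applied. For arrays, the number per group (3) limits the precision. Per the study's methods the 12 brain RNA samples came from separate mice; for liver the sources used here do not say so, and p-values there measure the spread between samples, which may be technical. The platform annotation gave 14411 probes 1 symbol, 247 several and 18354 none, and 1 member probe with several was left out. Gene positions and start sequences are from RefSeq. The members and lists were chosen with earlier results of these data known. Array values were given for the 5 largest called changes per subunit, called members against the majority and the 3 smallest, and, where nothing was called, the 2 largest rises and falls. The P-stalk members, the relatives, Rps6, Rpl13a, Rpl32 and Rps18 were always described, up to 4 called genes were named per translation list, and other members, among them Rpl5 and Rpl11, were named with their values seen. The fit was tested on simulated data. Alternatives were another scaling, offset, filters, probe choices, the authors' values, a replicate block, the methods' t-test, removal of the trend with span, and each array left out.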

Additional observations from a re-analysis of the deposited data

Results flagged for a closer look

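The difference between HF and LF diet in brain was not the same in Acads+/+ and Acads-/- mice for 43 ribosomal protein genes, by the interaction term of limma, with the thresholds used for every comparison. On the log2 scale the named members were Rpl36 (2.65), Rps28 (2.52), Rpl35a (2.43), Rpl36al (2.36), Rpl41 (2.23), Rps27l (2.23), Rpl37a (2.19), Rps29 (2.13), Rps18 (2.00) and Rps26 (1.96). In the other direction were Rpl39l (-0.71) and Rpl3 (-0.69), the latter turning to 0.25 with arrays scaled to a common median. For the other 41 all 3 Acads+/+ HF brain arrays lay below all 9 others, while for Rpl3 they did not, and its genotype difference was -0.31 on HF and 0.38 on LF diet. The Acads+/+ HF brain arrays stand apart from the other 9 on the first principal component and in the relation of signal to genomic span. The part of that in the interaction was not tested beyond the removal of the trend on span, after which 41 members passed. The share of all tested probes that passed after that removal was not counted.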

How the results depend on the processing

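The counts of changed members were 0 under every alternative run for genotype on LF diet and diet in Acads-/- brain and for all 5 liver comparisons. In the 3 other brain comparisons the count kept its direction and stayed within 1.5 times, except with the methods' t-test after Benjamini-Hochberg adjustment (0 for genotype on HF diet, 15 for diet in Acads+/+ mice, and 46 and 44 unadjusted). The shares of all tested probes passing that t-test were not counted. Acads+/+ LF arrays or Acads-/- HF arrays were also put in place of the Acads+/+ HF arrays. Both replacements give the same contrast, that of Acads-/- HF with Acads+/+ LF mice reported above, and so the same result. Its count was 0, and its large minus small difference -0.01. By construction this contrast leaves the Acads+/+ HF arrays out of the differences, but not out of the shared spread. With arrays scaled to a common median, large minus small was -0.22 for genotype on HF diet, 0.15 for diet in Acads+/+ mice and -0.37 for the interaction, and with all member probes counted it was -0.41 for the interaction; the cause was not tested. That scaling moved the median of all liver probes for diet in Acads+/+ mice to -0.33, with the members at -0.38. With each array left out in turn, 42 to 49 members were changed for diet in Acads+/+ mice, 43 to 51 for genotype on HF diet and 38 to 51 for the interaction, and large minus small was 0.32 to 0.5, -0.51 to -0.31 and -0.64 to -0.42. In liver large minus small was -0.06 to 0.02 for genotype on LF diet, -0.11 to 0.04 for diet in Acads+/+ mice and -0.05 to 0.07 for the interaction.

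Directions turned for few members. With arrays scaled to a common median Rpl3 had 0.48 for genotype on HF diet, -0.15 for diet in Acads+/+ mice and 0.25 for the interaction, and Rpl5 had -0.61 for diet. With each array left out in turn, Rpl5 ranged from -0.18 (without array 18017) to 0.31 for diet, and from -0.05 to 0.44 for genotype and -0.07 to 0.43 for the interaction, lowest without array 18022. Rpl6 ranged from -0.01 (without array 18022) to 0.25 for the interaction, and Rpl7l1 from -0.05 (without array 17956) to 0.19 for genotype. With the trend on genomic span removed Rpl7l1 had -0.03 for genotype, Rps3a1 0.03 for diet and Rpl6 -0.14 for the interaction. Of these, Rpl3 for diet and for the interaction had been called changed. Of the other values for named members, 1874 kept their direction and their side of the threshold, 97 no longer passed and 24 came to pass.

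The replicate number of the sample titles, which the authors' log2 values carry and the intensities do not, as a block on the authors' values gave 47 changed members for genotype on HF diet, 47 for diet in Acads+/+ mice and 42 for the interaction, which lost Rpl39l. On those values same-numbered arrays deviated together in 3 of 18 brain pairs (correlation over 0.1) and 5 of 18 liver pairs. Of 12 arrays per tissue, 7 in brain and 2 in liver correlated best with their own number. The numbers were not taken to pair the samples, though these counts do not settle that for brain. Chosen after seeing the data were the members without the 7 relatives (43, 43 and 38 changed) and a normalization that kept the members out of the reference. With 3 arrays per group, the interval in brain lay within a fold change of 1.6 for 38 to 45 of 59 members in the comparisons without a call.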
